A study of Mus musculus with 8 samples.

Results

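The genes of cholesterol and fatty acid synthesis were followed in the brainstem of mice that lack Ndufs4, a subunit of mitochondrial complex I, in glutamatergic neurons. They were listed by their textbook role: 19 enzymes of mevalonate, isoprenoid and sterol synthesis, 6 genes of SREBP control and sterol transport, 8 genes of fatty acid synthesis and Cyp46a1, 34 in all. A probe was taken as a gene's when its annotated symbol was that gene's, which gave 42 of the 25697 probes on the array and 31 of the 34 genes. Acat2, Mvk and Fdft1 were not analysed here. A probe was tested when its detection p-value, against the negative control beads, fell under 0.05 on 3 or more of the 8 arrays. This held for 37 of the 42 probes and for 30 of the genes, among 15225 probes and 10427 genes tested on the whole array. Ggps1, which makes geranylgeranyl diphosphate, had no probe detected on any array. All 30 tested genes were detected on all 8 arrays.

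Total RNA of whole brainstem came from late-stage Vglut2:Ndufs4cKO mice (cKO, n = 4) and Vglut2:Ndufs4cCT mice (cCT, n = 4), a model of Leigh syndrome and its controls on a C57/BL6J background, and was hybridized to Illumina MouseRef-8 v2 beadchips. Both groups carry Slc17a6-Cre, a Cre recombinase driven by the promoter of the vesicular glutamate transporter Vglut2. The cKO mice have a deleted Ndufs4 allele in every cell and a floxed one, and the cCT mice, their littermates, have a floxed and a wild-type allele. All cells other than Vglut2-lineage neurons thus keep a working copy in both groups, and whole tissue mixes these cells.

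Cholesterol is built from acetyl-CoA through mevalonate and isoprenoids to squalene, which is closed to lanosterol and trimmed to cholesterol by a chain of enzymes of the endoplasmic reticulum. Most of these genes share control by SREBP2, and fatty acid genes by SREBP1, membrane-bound transcription factors that Insig and Scap hold back when sterols are plentiful. The brain makes its own cholesterol, largely in glia, where myelin takes up most of it, and neurons dispose of the excess through Cyp46a1.

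The arrays had 14293 to 15042 detected probes, with 34 to 37 beads behind the median probe. All lay on 1 beadchip, cCT at positions A to D and cKO at E to H, so that position and genotype cannot be told apart. One Ndufs4 probe of 4, ILMN_1234521, had log2 signals of 12.31 to 13.35 in cCT and 11.19 to 11.72 in cKO (log2 fold change -1.41, adjusted p = 0.0228 from limma). The remaining Ndufs4 probes had log2 fold changes of -0.20 to -0.14 and did not pass, and where the probes lie relative to the deleted exon is not given in the sources used here. Of 9 genes listed for hindbrain and brainstem, 8 were tested, among them Hoxa5, Hoxb5, Chat and Tph2, and none passed. Their log2 fold changes ran from -0.28 (Hoxa5) to 0.74 (Dbh), with a median of -0.10. Some varied widely within a group, as Tph2 did in cCT, from 10.65 to 12.58. Probes of the same gene moved apart between arrays. An index of this, from 3755 probes of 1658 genes outside the pathway, was 0.045, 0.232, 0.307 and 0.083 on cCT arrays 1 to 4 and -0.018, -0.343, -0.735 and 0.43 on cKO arrays 1 to 4. The cKO arrays 3 and 4 thus lay at its opposite ends. The group difference of the index had p = 0.286 in a two-sided exact permutation test.

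The mevalonate and sterol enzymes had lower mean signals in the cKO brainstem, 13 of the 15 tested by less than 0.5 on the log2 scale, and none of them passed the test. All 15 tested enzymes had a log2 fold change below 0, from -1.15 (Nsdhl) to -0.01 (Pmvk), with a median of -0.33. Over all 10427 tested genes 46.6% were below 0, and the median was 0.02. Of the 30 tested genes of the whole set 25 were below 0, with a median of -0.29, which was -0.19 without cCT array 2. A gene's value here is that of its brightest tested probe. At an adjusted p under 0.05 (limma, Benjamini-Hochberg over all tested probes) 0 of the 30 were called in either direction, against 0.806% of all genes (0.777% higher and 0.0288% lower). When the p was left unadjusted and under 0.05, 9 were lower, 6 of them sterol enzymes, against 3.02% of all genes, and 1 (Srebf1) was higher, against 7.19%. In 5 genes (Mvd, Ebp, Stard4, Elovl6 and Fads1) every cKO value lay below every cCT value, which held for 2.03% of all genes, and in 1 (Insig2) every cKO value lay above, against 4.29%. Among these brightest probes the smallest adjusted p was 0.234 (Elovl6). Signals below are log2 values after background correction, scaling to an equal mean and addition of 16, so that the differences of dim genes are understated.

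**Figure D1:**
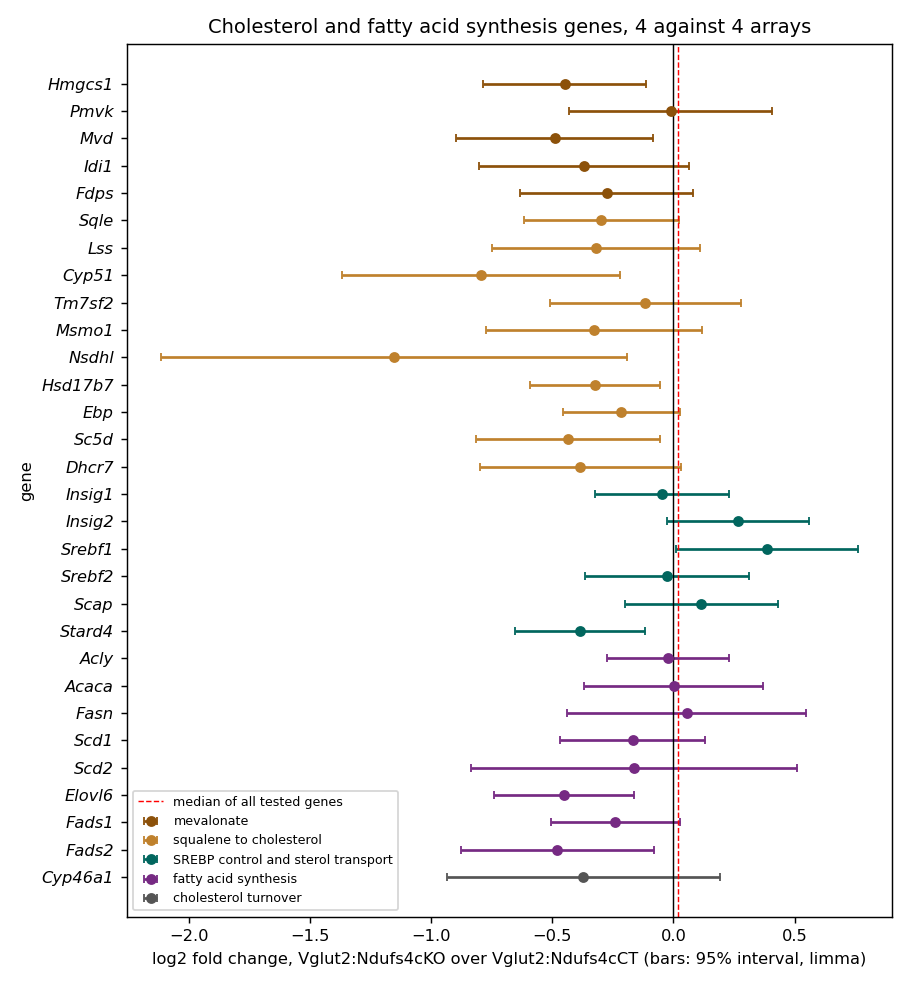
Log2 fold change of the 30 tested genes, cKO over cCT, in pathway order, with the 95% interval from limma (4 against 4 arrays). The 15 mevalonate and sterol enzymes at the top all lie left of 0, while the SREBP control genes lie on both sides and the dashed line marks the median of all tested genes (0.02).

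The mevalonate pathway opens with Hmgcs1, the cytosolic HMG-CoA synthase. Its log2 signal was 15.55, 15.86, 15.40 and 15.74 on the cCT arrays 1 to 4 and 15.49, 15.12, 15.03 and 15.13 on the cKO arrays 1 to 4. The cKO arrays 2, 3 and 4 lay below all cCT arrays and cKO array 1 lay among them. The means of 15.64 ± 0.20 and 15.19 ± 0.20 (SD, n = 4 each) differed by more than either SD, but a cKO level 0.733 times that of cCT did not pass the test (log2 fold change -0.45, standard error 0.15, adjusted p = 0.339, unadjusted p = 0.0144, from limma).

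Mvd, the decarboxylase that makes isopentenyl diphosphate, had log2 signals of 9.69, 10.14, 9.52 and 9.53 (cCT) and 9.37, 9.40, 9.28 and 8.87 (cKO). No cKO array reached the lowest cCT array, and cKO array 4 was the lowest of all (log2 fold change -0.49, standard error 0.18, adjusted p = 0.402, limma). Idi1, the isomerase of the next step, had 8.17, 8.90, 8.49 and 8.03 (cCT) and 7.80, 8.03, 8.16 and 8.11 (cKO). Its groups overlapped, with cCT array 2 far above the rest (log2 fold change -0.37, standard error 0.19, adjusted p = 0.581, limma), and without that array the log2 fold change was -0.20. Fdps, the synthase of farnesyl diphosphate, and Pmvk, the phosphomevalonate kinase, had log2 fold changes of -0.28 and -0.01 (adjusted p = 0.619 and 0.991, limma). Both ranged widely in cKO because array 4 stood low, at 12.65 for Fdps and 9.49 for Pmvk, while the other cKO arrays were at 13.13 to 13.29 and 10.18 to 10.29. Without cKO array 4 the log2 fold change was -0.13 for Fdps and 0.18 for Pmvk. The median over the 5 tested mevalonate enzymes was -0.37.

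From squalene to cholesterol 10 enzymes were tested, all below 0, with a median of -0.33. Sqle, the squalene epoxidase that commits squalene to sterols, had log2 signals of 12.73, 13.23, 13.02 and 12.96 (cCT) and 12.92, 12.65, 12.59 and 12.59 (cKO) with its brighter probe. The cKO array 1 was within the cCT range, and the others lay below all cCT arrays (log2 fold change -0.30, standard error 0.14, adjusted p = 0.541, limma). Lss, which closes the epoxide to lanosterol, had a log2 fold change of -0.32 (adjusted p = 0.632, limma), or -0.15 without cCT array 2.

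Cyp51, the lanosterol demethylase, had the second lowest fold change among the brightest probes of the set. Its log2 signal was 11.00, 11.84, 11.47 and 11.33 on the cCT arrays 1 to 4 and 10.98, 10.43, 10.03 and 11.03 on the cKO arrays 1 to 4. The cKO arrays 2 and 3 lay well below every cCT array, and cKO arrays 1 and 4 stood beside cCT array 1, the lowest of its group (log2 fold change -0.79, standard error 0.25, adjusted p = 0.313, unadjusted p = 0.0117, from limma). With the index of moving probes as a covariate its value was -0.47 (adjusted p = 0.507).

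Nsdhl, the sterol dehydrogenase that removes the methyl groups left after Cyp51, had the lowest fold change and the widest cKO spread among the brightest probes of the set. Its own gave log2 signals of 8.60, 8.98, 8.79 and 8.62 on the cCT arrays 1 to 4 and 7.88, 6.99, 6.60 and 8.91 on the cKO arrays 1 to 4. The cKO arrays 1, 2 and 3 lay 0.72 or more below the lowest cCT array and cKO array 4 lay within the cCT range, so that the SD was 0.18 in cCT and 1.03 in cKO (log2 fold change -1.15, standard error 0.43, adjusted p = 0.403, unadjusted p = 0.0235, from limma). Without cKO array 4 its log2 fold change was -1.59 and passed the test (adjusted p = 0.0282), the only call of any of the 30 genes with 1 array left out. With the index as a covariate it was -0.49 (adjusted p = 0.362). Of the 3 other Nsdhl probes, ILMN_2594521 and ILMN_2725402 had the same order of cKO arrays. The dimmest, ILMN_2958207, did not: it had 7.63, 7.75, 7.70 and 7.45 (cCT) and 7.18, 7.20, 7.04 and 7.15 (cKO). All 4 cKO arrays were there below all cCT arrays and close together, also array 4 (log2 fold change -0.49, standard error 0.11, adjusted p = 0.126, unadjusted p = 0.00186, limma).

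A similar disagreement was seen in Sqle, whose dimmer probe, ILMN_2600348, had 9.10, 10.27, 10.14 and 9.37 (cCT) and 8.94, 8.01, 6.52 and 10.20 (cKO). Its lowest and second highest values were those of cKO arrays 3 and 4 (log2 fold change -1.30, adjusted p = 0.575, limma). In the index too, array 3 was the lowest and array 4 the highest of all 8. Values with the index as a covariate were taken only for the brightest probe of each gene. Nsdhl was then at -0.49 (adjusted p = 0.362, limma), against -1.15 without it. Sqle was at -0.26 (adjusted p = 0.739, limma), against -0.30. The part of this disagreement in the dimmer probes was not tested.

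**Figure D2:**
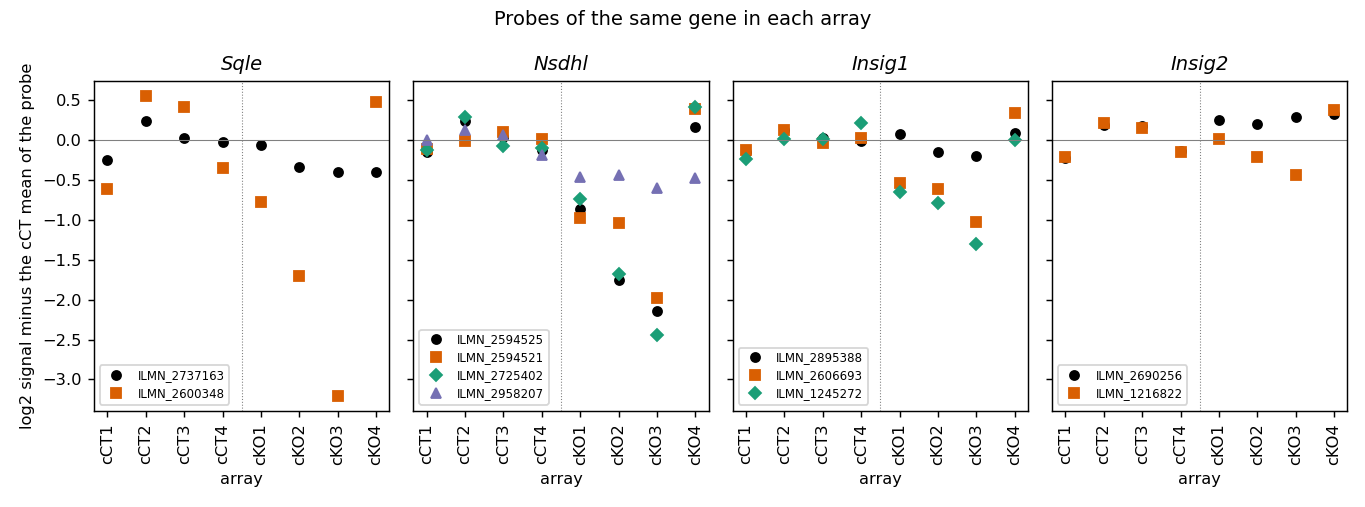
Log2 signal of each tested probe of Sqle, Nsdhl, Insig1 and Insig2 in each array, as the difference from the probe's cCT mean, with a colour and shape per probe. Most dimmer probes range widely among cKO arrays, lowest in array 3 and highest in array 4, whereas the brightest probes of Sqle, Insig1 and Insig2 and the dimmest of Nsdhl stay closer together.

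The other enzymes of sterol trimming differed less. Hsd17b7, the keto reductase that acts with Nsdhl, had log2 signals of 12.35, 12.22, 12.07 and 12.22 (cCT) and 11.89, 11.78, 11.82 and 12.07 (cKO). Only cKO array 4 overlapped with cCT, by reaching just above cCT array 3 (log2 fold change -0.32, standard error 0.12, adjusted p = 0.402, limma). Sc5d, the sterol desaturase, had 8.87, 9.56, 9.11 and 9.31 (cCT) and 9.04, 8.73, 8.65 and 8.67 (cKO). The cKO arrays 2, 3 and 4 lay below every cCT array, and cKO array 1 above cCT array 1 (log2 fold change -0.44, standard error 0.17, adjusted p = 0.432, limma).

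Ebp, the sterol isomerase, had 10.78, 10.77, 10.93 and 10.98 (cCT) and 10.70, 10.61, 10.65 and 10.63 (cKO). This was a small separation without overlap, of narrow groups (log2 fold change -0.22, standard error 0.11, adjusted p = 0.559, limma). Tm7sf2 and Dhcr7, a pair of sterol reductases of which Dhcr7 makes cholesterol itself, had -0.12 and -0.38, and the methylsterol oxidase Msmo1 had -0.33 (adjusted p = 0.865, 0.545 and 0.637, limma). Their groups overlapped, and their log2 fold changes moved with 1 array left out, to between -0.26 and -0.01 for Tm7sf2. Dhcr7 was at -0.22 without cKO array 4 and Msmo1 at -0.14 without cCT array 2.

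The same arrays did not set every enzyme. Each of the 4 cKO arrays was below the cCT mean in 14 of the 15 enzymes. The cCT arrays 1 to 4 themselves were below that mean in 13, 2, 8 and 8 enzymes. The cKO arrays 1 to 4 were below every cCT array in 7, 10, 11 and 9 enzymes. For these counts, and for those below the cCT mean, the share of all tested genes is not given. They thus cannot be set against a background. The lowest value of an enzyme was found in cKO array 4 for 6 enzymes, in cKO array 3 for 4 and in cKO array 2 for 3. It was in cKO array 1 for 1 enzyme and in cCT array 1 for the last. Over all tested genes, the lowest value was in cKO arrays 4, 3, 2 and 1 for 12.4%, 19.5%, 10.3% and 5.55%. It was in cCT array 1 for 21.8% of all tested genes. Among the controls, cCT array 2 held the highest value of 9 enzymes, and of 17.9% of all tested genes. Averaged over the 15 enzymes, the log2 difference from the cCT mean was -0.16, 0.25, -0.05 and -0.03 on cCT arrays 1 to 4 and -0.25, -0.42, -0.50 and -0.42 on cKO arrays 1 to 4. The averages did not overlap, though cCT array 1 and cKO array 1 were 0.09 apart. All genes together averaged between -0.06 and 0.05 on the cCT arrays and between 0.01 and 0.06 on the cKO arrays.

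**Figure D3:**
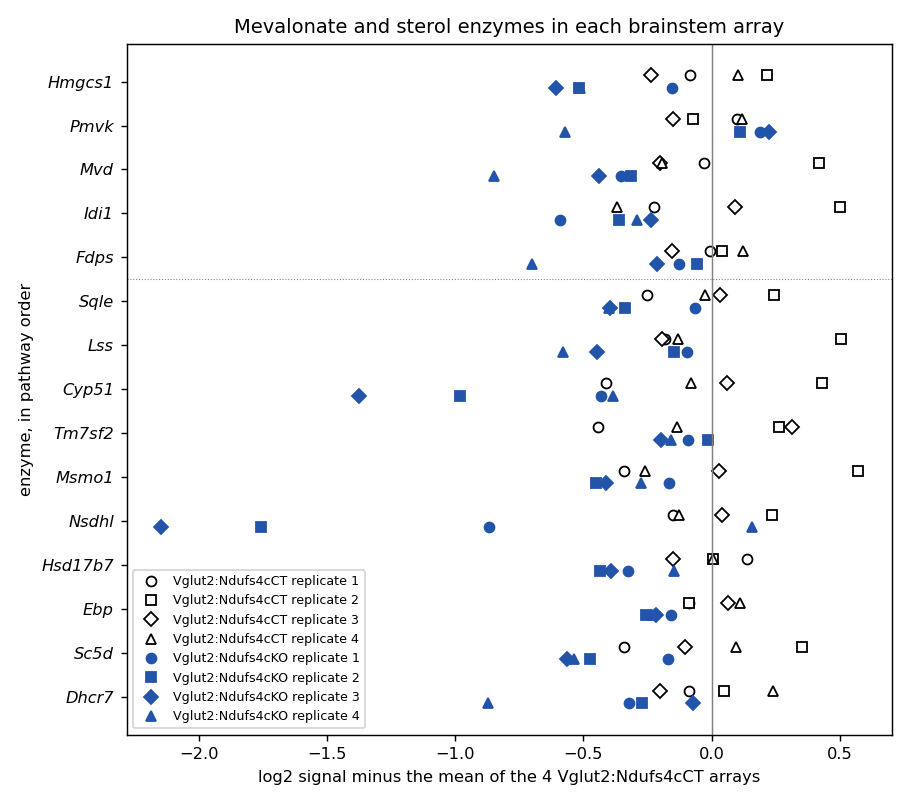
Log2 signal of the 15 mevalonate and sterol enzymes in each array, as the difference from the mean of the 4 cCT arrays (open symbols cCT, filled symbols cKO, 1 shape per replicate number). Most filled symbols lie left of 0, and cCT replicate 2 (open squares) holds the highest value of 9 enzymes, and of 17.9% of all tested genes.

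Without cCT array 2 the median of the 15 enzymes was -0.26, and all 15 were still below 0. Array weights, and the omission of cCT array 1, cCT array 4 or cKO array 4, left 14 below 0, with Pmvk at 0.02 to 0.18. All 15 were below 0 under every other alternative run. The filters, the variance trend, the replicate block and the unadjusted p left the enzyme values unchanged, so these runs could not alter the direction.

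In whole tissue, fewer cells of a type and less RNA per cell cannot be told apart. Of 12 oligodendrocyte and myelin genes listed as markers 9 were tested, and 6 of these were below 0 with a median of -0.27 and 0 called. Their summed signal was 185000 to 252000 in cCT and 178000 to 228000 in cKO, and their mean log2 difference from the cCT mean was -0.27 to 0.31 and -0.48 to -0.13, so that the groups overlapped. Ugt8a, which makes the myelin lipid galactosylceramide, had -0.85 and Mog -0.49, whereas Mbp, the basic protein of myelin, had 0.02. Of 4 tested markers of oligodendrocyte precursors 3 were below 0, with a median of -0.12, 0 called and the lowest value in Gpr17 (-0.83, adjusted p = 0.269, limma). Of 8 astrocyte markers 4 were above 0, with a median of 0.08 and 0 called, and the highest were Gfap at 0.85 and Aldh1l1 at 0.49 (adjusted p = 0.297 and 0.376, limma). Of 9 microglia and macrophage markers 5 were tested, all above 0 with a median of 1.01 and 1 called (C1qa, 1.26, adjusted p = 0.0195), and their summed signal was 3190 to 3620 in cCT and 4590 to 8610 in cKO. The tested markers of these 4 lists were detected on all 8 arrays. Of 6 tested general neuron markers 4 were below 0 with a median of -0.03, and all 5 tested transmitter markers of neurons were below 0 with a median of -0.09, from -0.52 (Slc6a5) to -0.01 (Slc17a7). None of either list was called, and Slc6a5 was dim, detected on 3 of the 4 cCT arrays and 1 of the 4 cKO arrays. The part of these lists in the sterol enzyme values was not tested.

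**Figure D4:**
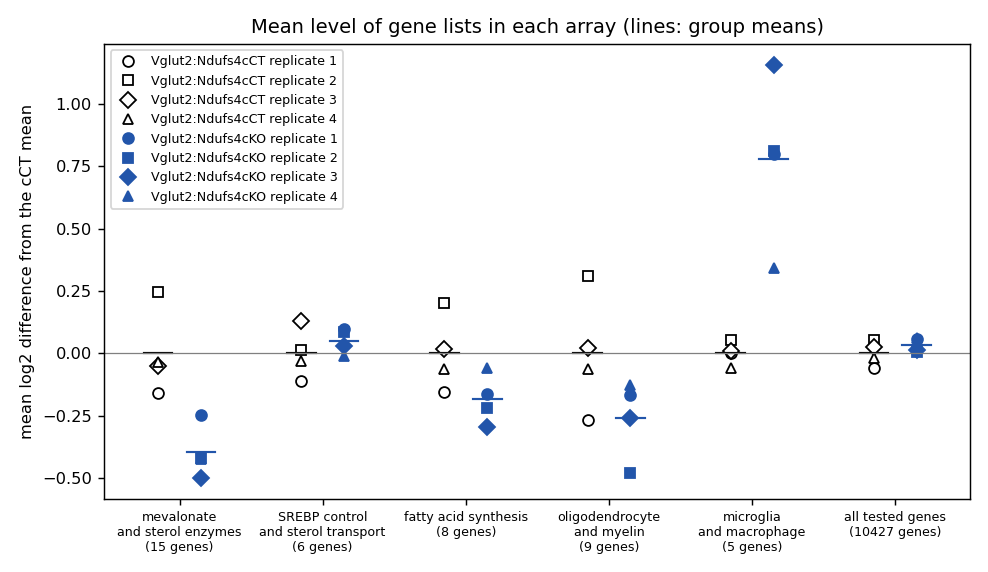
Mean log2 difference from the cCT mean in each array (open symbols cCT, filled symbols cKO, lines for group means) for the enzymes, the SREBP control genes, the fatty acid genes, 2 marker lists and all tested genes. The sterol enzymes separate the groups (cCT -0.16 to 0.25, cKO -0.50 to -0.25), the oligodendrocyte markers overlap, and the microglia markers lie higher in cKO.

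The promoters of the 6 sterol enzymes with an unadjusted p under 0.05 are shown because such genes share control by SREBP, which binds sterol regulatory elements, often beside a CCAAT box bound by NF-Y. Each sequence is the 200 bases just before the RefSeq start of the gene in GRCm38.p6, 5′ to 3′ on the gene's strand. Capitals mark matches on either strand to TCACNCCAC, a form of the sterol regulatory element, or to CCAAT, and no printed matches overlap each other.
Hmgcs1, chr13:119690151-119690350, plus strand: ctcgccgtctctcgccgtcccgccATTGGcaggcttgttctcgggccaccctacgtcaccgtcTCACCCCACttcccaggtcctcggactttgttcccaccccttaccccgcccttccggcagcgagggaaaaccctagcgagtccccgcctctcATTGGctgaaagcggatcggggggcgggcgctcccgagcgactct
Mvd, chr8:122443423-122443622, minus strand: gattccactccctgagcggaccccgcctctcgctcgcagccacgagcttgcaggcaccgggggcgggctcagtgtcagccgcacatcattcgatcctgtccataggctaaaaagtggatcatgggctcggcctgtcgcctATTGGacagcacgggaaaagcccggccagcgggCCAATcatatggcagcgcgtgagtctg
Cyp51, chr5:4104698-4104897, minus strand: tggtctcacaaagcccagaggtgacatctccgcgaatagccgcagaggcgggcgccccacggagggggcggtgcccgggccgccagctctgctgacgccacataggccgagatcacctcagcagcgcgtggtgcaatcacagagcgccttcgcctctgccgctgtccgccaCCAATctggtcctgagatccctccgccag
Nsdhl, chrX:72918321-72918520, plus strand: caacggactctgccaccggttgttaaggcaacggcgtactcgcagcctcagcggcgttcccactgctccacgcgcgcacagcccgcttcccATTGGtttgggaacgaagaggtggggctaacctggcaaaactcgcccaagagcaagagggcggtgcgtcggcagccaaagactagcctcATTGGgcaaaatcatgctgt
Hsd17b7, chr1:169969206-169969405, minus strand: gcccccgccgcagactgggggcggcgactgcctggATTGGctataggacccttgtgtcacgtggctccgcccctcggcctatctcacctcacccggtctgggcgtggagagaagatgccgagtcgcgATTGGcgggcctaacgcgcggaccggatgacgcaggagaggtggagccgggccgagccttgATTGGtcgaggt
Sc5d, chr9:42264301-42264500, minus strand: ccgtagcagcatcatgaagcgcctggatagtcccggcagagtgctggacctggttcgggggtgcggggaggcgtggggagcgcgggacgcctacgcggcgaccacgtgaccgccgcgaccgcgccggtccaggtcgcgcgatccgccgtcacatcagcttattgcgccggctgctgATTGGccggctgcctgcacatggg

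The sterol element was found in Hmgcs1 alone of these, at bases -137 to -129 from the start, and all 6 held 1 to 3 CCAAT boxes. In the full promoter table, which runs from 250 bases before to 50 after each start, 27 of the 34 genes were found, with 35 promoters. TCACNCCAC lay in 1 of these 35 (2.86%) against 1.24% of all 32851 promoters. CCAAT, a motif looked for after the data had been seen, lay in 23 of the 35 (65.7%) against 37.4% of all. For the tested sterol enzymes, 13 of 15 were in the table and each had a CCAAT box in at least 1 promoter (13 of 16 promoters, 81.2%). Fdps and Sqle were not found there. Short motifs match by letters alone, and binding was not measured.

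By their brightest probes, the genes of SREBP control and sterol transport did not all share the direction of the enzymes. Of 6 tested genes of SREBP control and sterol transport, 3 were above and 3 below 0, with a median of 0.04. Srebf1, the gene of SREBP1, had log2 signals of 8.80, 8.54, 8.96 and 8.56 on the cCT arrays 1 to 4 and 9.25, 9.34, 9.10 and 8.72 on the cKO arrays 1 to 4. The cKO arrays 1, 2 and 3 lay above all cCT arrays and array 4 among them. The higher cKO mean did not pass (log2 fold change 0.39, standard error 0.17, adjusted p = 0.489, unadjusted p = 0.0441, from limma). Without cKO array 4 it did not pass either (log2 fold change 0.51, adjusted p = 0.0978, limma). Srebf2, the gene of SREBP2 that drives most sterol enzymes, had 9.73, 9.56, 10.01 and 9.84 (cCT) and 9.80, 9.89, 9.91 and 9.44 (cKO). Its groups covered the same range (log2 fold change -0.03, standard error 0.15, adjusted p = 0.972, 95% interval -0.37 to 0.31, limma).

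Insig2, an anchor of SREBP in the endoplasmic reticulum, was higher on each cKO array than on any cCT array, by little. Its brightest probe had 11.71, 12.12, 12.11 and 11.80 (cCT) and 12.19, 12.14, 12.22 and 12.26 (cKO). The lowest cKO value was 12.14 and the highest cCT value 12.12 (log2 fold change 0.27, standard error 0.13, adjusted p = 0.558, limma), and a dimmer probe, with overlapping groups, had -0.07. Its paralog Insig1, which SREBP itself induces, had 10.24, 10.52, 10.41 and 10.38 (cCT) and 10.46, 10.23, 10.19 and 10.47 (cKO) with its brightest probe. These groups overlapped (log2 fold change -0.05, standard error 0.12, adjusted p = 0.928, limma), but its dimmer probes ILMN_1245272 and ILMN_2606693 had -0.68 and -0.46 (adjusted p = 0.388 and 0.602), with cKO array 4 within or above the cCT range and array 3 the lowest.

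Scap, the escort of SREBP, had 0.12 (adjusted p = 0.818, 95% interval -0.20 to 0.43). Stard4, which carries cholesterol between membranes and is a known SREBP2 target, had lower cKO values, as the enzymes did. Its log2 signal was 10.79, 10.97, 10.86 and 10.86 on the cCT arrays 1 to 4 and 10.69, 10.33, 10.44 and 10.49 on the cKO arrays 1 to 4. Every cKO value lay below every cCT value, with cKO array 1 nearest (log2 fold change -0.39, standard error 0.12, adjusted p = 0.287, unadjusted p = 0.00959, from limma). Without cCT array 1 the median of the 6 genes was -0.01.

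Paralog pairs were compared through the log2 ratio of their signals within each array, over 4 pairs. The ratio of Insig1 to Insig2 was -1.47, -1.61, -1.70 and -1.43 on the cCT arrays and -1.74, -1.90, -2.04 and -1.79 on the cKO arrays. Every cKO ratio of these brightest probes was below every cCT ratio, with a difference of -0.31. The two-sided exact permutation test gave p = 0.0286, the smallest that 4 against 4 allow, and adjusted p = 0.0571 over the 4 pairs. With the next brightest probe of each gene, the ratio of cKO array 4 lay among those of the cCT arrays. With the mean over the probes the difference was -0.50 (exact permutation test, adjusted p = 0.0571). The ratio of Srebf1 to Srebf2 was -0.93, -1.02, -1.06 and -1.28 on the cCT arrays and -0.55, -0.55, -0.81 and -0.73 on the cKO arrays. Here every cKO ratio was above every cCT ratio, with a difference of 0.41 (exact p = 0.0286, adjusted p = 0.0571). The differences for Fads1 over Fads2 (0.24, exact p = 0.171, adjusted p = 0.229) and Scd1 over Scd2 (0.00, exact p = 1) were within overlapping groups. No pair could pass unless at least 3 of the 4 reached the smallest p.

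In fatty acid synthesis the genes that make palmitate differed least, and lower values lay among the enzymes that lengthen and desaturate fatty acids. Of 8 tested genes 6 were below 0, with a median of -0.17, which was -0.07 without cCT array 2. Fasn, the fatty acid synthase, had 6.18, 6.72, 6.76 and 7.07 (cCT) and 6.93, 7.02, 6.71 and 6.29 (cKO). Its probe was dim, and a stricter detection filter left it out. Both groups spread over the same range (log2 fold change 0.05, standard error 0.22, adjusted p = 0.958, 95% interval -0.44 to 0.55, limma). Acly, which supplies acetyl-CoA from citrate, and Acaca, the acetyl-CoA carboxylase, had -0.02 (95% interval -0.27 to 0.23) and 0.00 (95% interval -0.37 to 0.37).

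Elovl6, the elongase of palmitate, had the smallest p among the brightest probes of the set. Its log2 signal was 11.32, 11.73, 11.45 and 11.60 on the cCT arrays 1 to 4 and 11.06, 10.93, 11.10 and 11.21 on the cKO arrays 1 to 4. The cKO arrays lay within 0.27 of each other and all below the cCT arrays, at 0.731 times the cCT level (log2 fold change -0.45, standard error 0.13, adjusted p = 0.234, unadjusted p = 0.00625, from limma). Over the alternatives run, apart from the unadjusted p, its adjusted p was 0.0669 to 0.57.

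Scd1 and Scd2, the desaturases of stearate, overlapped between the groups. Scd1 had 13.51, 13.61, 13.28 and 13.69 (cCT) and 13.18, 13.38, 13.52 and 13.34 (cKO), with cKO array 1 the lowest (log2 fold change -0.17, standard error 0.13, adjusted p = 0.716, limma). Scd2 had 11.61, 12.22, 12.16 and 11.03 (cCT) and 11.90, 11.33, 11.12 and 12.03 (cKO), and it varied by over 1 log2 unit within cCT (log2 fold change -0.16, standard error 0.30, adjusted p = 0.895, limma). With the index as a covariate Scd2 was at 0.17 instead, and with 1 array left out it was at -0.406 to -0.0043.

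The desaturases of polyunsaturated fatty acids both had lower means. Fads1 had 14.57, 14.86, 14.60 and 14.62 (cCT) and 14.35, 14.33, 14.45 and 14.55 (cKO). The groups were separate by 0.02, and cCT array 2 stood above the others (log2 fold change -0.24, standard error 0.12, adjusted p = 0.558, limma). Fads2, which acts before it, had 9.52, 9.81, 9.44 and 9.45 (cCT) and 8.97, 9.04, 8.77 and 9.54 (cKO). The cKO arrays 1, 2 and 3 were below all cCT arrays and array 4 among them (log2 fold change -0.48, standard error 0.18, adjusted p = 0.404, unadjusted p = 0.0239, from limma).

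Cyp46a1, the neuronal hydroxylase through which the brain disposes of cholesterol, had log2 signals of 7.49, 7.39, 7.78 and 7.77 (cCT) and 7.55, 7.09, 6.54 and 7.77 (cKO). The cKO arrays 2 and 3 were low, and 1 and 4 lay within the cCT range (log2 fold change -0.37, standard error 0.25, adjusted p = 0.665, limma). It was -0.03 with the index as a covariate and -0.14 without cKO array 3.

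Of 54 other genes of these pathways 43 were tested, 0 were called at an adjusted p under 0.05, and 32 were below 0 with a median of -0.13, against 46.6% of all genes below 0. At an unadjusted p under 0.05, 4 of the 43 were higher and 3 lower, against 7.19% and 3.02% of all genes, so that the higher ones were near the background. Among 5 oxysterol enzymes, Ch25h, the cholesterol hydroxylase that macrophages induce, had the largest value. Its log2 signal was 6.91, 6.55, 6.94 and 5.99 on the cCT arrays 1 to 4 and 8.67, 7.40, 8.16 and 8.99 on the cKO arrays 1 to 4. All cKO arrays lay above all cCT arrays, with cKO array 2 the lowest (log2 fold change 1.71, standard error 0.34, adjusted p = 0.0708, limma), beside the higher macrophage markers given above, whose part was not tested. Hsd3b7, a later enzyme of bile acid synthesis from oxysterols, had 0.47 (standard error 0.15, adjusted p = 0.294), with no overlap.

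Elovl5, the elongase of polyunsaturated fatty acids that follows Fads2, had 13.57, 13.43, 13.39 and 13.48 (cCT) and 12.91, 12.84, 12.83 and 13.27 (cKO). Every cKO array was below every cCT array (log2 fold change -0.50, standard error 0.13, adjusted p = 0.173, limma). Hacd2, a dehydratase of fatty acid elongation, had 0.43 without overlap (adjusted p = 0.328), and Mlxipl, the glucose-responsive factor ChREBP, had 0.61 (adjusted p = 0.395). Of 8 tested genes of the isoprenoid branches 7 were below 0 with a median of -0.07, among them Fnta, a farnesyltransferase subunit, at -0.30 (adjusted p = 0.446). The 6 tested genes of SREBP processing and turnover had a median of -0.11, and 4 were below 0.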

How the data were processed

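The authors deposited, for each array, the signal intensity of every probe before normalization, its detection p-value and the count of beads behind it. They also deposited an intensity table made in GenomeStudio (version not given in the sources used here) by subtracting background and equalizing array means. It is a linear function of the first and served as an alternative. RNA had been extracted with RNeasy and labelled with biotin by TotalPrep, per the labels.

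The unnormalized intensities were taken. With limma 3.58.1 (R 4.3.3, statmod 1.5.0), background was corrected by normexp, using the detection p-values, arrays were scaled by 0.876 to 1.09 to an equal mean, 16 was added and log2 taken. Groups were compared with lmFit and eBayes, without a block and with Benjamini-Hochberg adjustment over the 15225 tested probes. The Illumina custom error model of the study's methods was not repeated. Each gene was represented by its brightest tested probe. Of all probes 23978 had 1 symbol and 1719 none. Single differences were tested with exact permutation over 70 arrangements. The script was tested on simulated data. A p-value here sets a group difference against the spread among the 4 arrays of each group. In limma, eBayes first draws the spread of each probe toward that of all tested probes. The spread among arrays holds technical variation besides the variation between mice.

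The genes, gene lists and tests were chosen with earlier results of these data known. Genes were given in full where the unadjusted p was under 0.05 or the groups did not overlap, as were Hmgcs1, Idi1, Sqle, Insig1, Srebf1, Srebf2, Fasn, Scd1, Scd2 and Cyp46a1. Of the other pathway genes the 6 with the smallest p were named. Alternatives changed the background correction (none), normalization (quantile), offset (1 or 50), starting table (the normalized one), filter (none, or a detection p under 0.01 on every array of either group), variance model (trend), weights (per array), pairing (replicate block), threshold (unadjusted p) and probe choice (mean over the probes), or left out each array in turn. A covariate (first principal component of differences between probes of the same gene, 61.1% of their variance) and the next brightest Insig probes were added after the data were seen. A comparison of protein sequences was not run. Promoters are from RefSeq, GRCm38.p6.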

Additional observations from a re-analysis of the deposited data

Results flagged for a closer look

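In 60 groups of 4 arrays, those of the 30 tested genes, 4 had an array farther from the others than Dixon's 95% limit for 4 values, and chance gives about 1 in 20. Pmvk was at a log2 signal of 9.49 on cKO array 4, with the other cKO arrays at 10.18 to 10.29. Lss was at 9.41 on cCT array 2, with the others at 8.71 to 8.77. Scap was at 9.87 on cCT array 1, with the others at 10.19 to 10.24. Fads1 was at 14.86 on cCT array 2, with the others at 14.57 to 14.62.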

How the results depend on the processing

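No alternative called a gene of the group higher or lower by adjusted p, apart from the omission of cKO array 4, which called 1 lower, Nsdhl. With 1 array left out, 0 to 1 genes were called lower and 0 higher, and the Scd1 to Scd2 difference was -0.22 to 0.29. The groups then did not overlap in 5 to 9 genes with cKO lower and in 1 to 2 with cKO higher. Smaller groups separate more often by chance, and the share of all genes is not given for these runs. These counts thus cannot be set against the shares given for 4 against 4 arrays. At an unadjusted p, 1 was higher and 9 lower. With the mean of a gene's probes, 0 genes had cKO higher without overlap. Under quantile normalization the Scd1 to Scd2 difference was 0.0248. The medians of the gene sets kept within the spread between arrays, and that of SREBP control changed sign, to -0.01 without cCT array 1. With array weights Pmvk was at 0.076, Srebf2 at 0.0024, Acly at 0.0397 and Acaca at -0.0247. Fasn was -0.0133 without background correction, and Acaca was -0.0077 under quantile normalization and -0.0002 in the authors' table. With the covariate Insig1 was 0.0519, Fasn -0.0424 and Scd2 0.1728. With 1 array left out, the range was -0.0898 to 0.1752 for Pmvk, -0.0963 to 0.0021 for Insig1, -0.1017 to 0.0791 for Srebf2, -0.0665 to 0.0263 for Acly, -0.1121 to 0.0726 for Acaca and -0.1137 to 0.2033 for Fasn. The cause of these changes was not tested.

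Replicate numbers are not said to pair the animals. Same-numbered arrays correlated at -0.261 to -0.191 in their deviations from the group means, which cannot show whether animals were paired. With the replicate number as a block, 8 genes of the whole array were called higher and 0 lower, against 81 and 3 without it, and 0 of the 30. Insig1 over Insig2 and Srebf1 over Srebf2 then had p = 0.125 (exact sign permutation), the smallest that 4 blocks allow. No paralog pair could thus pass with the block. Array weights called 174 genes higher and 19 lower on the whole array, and the omission of cKO array 4 called 179 and 51. The other arrays, left out in turn, gave 22 to 50 higher and 0 to 1 lower. The strict filter left 29 of the genes, without Fasn. A block by beadchip was not possible, with 1 beadchip. Arrays give no counts, and 4 arrays a group limit the precision.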
